A study of Mus musculus with 8 samples.

Results

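Among the probes of a whole-genome mouse expression array, 3218 were designed on a transcript that carries an Ensembl identifier (ENSMUST) as its name, and not on a RefSeq accession. They were taken by that rule from the 55681 non-control probes, of which they make up 5.78%, and they stand for 3071 transcripts. The other probes were 28685 on RefSeq accessions, 16194 on strand-specific genome intervals and 7584 on cDNA clones and further sources. The reference table used for names holds no Ensembl transcript identifiers, so that the probes are given by their own identifiers, without a gene name, a chromosome or a sequence.

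Ensembl and RefSeq are catalogues of transcripts that were built with different rules. Ensembl combines an automatic gene build with manual annotation, and it lists many splice variants, processed transcripts, pseudogenes and non-coding RNAs beside the protein-coding genes. It also gives transcript identifiers to the mitochondrial genes and to the single gene segments from which antibodies and T cell receptors are assembled. A probe designed on an Ensembl transcript can therefore stand for an alternative form of a known gene as well as for a gene that RefSeq did not list when the array was made.

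The RNA came from the hippocampus of 3-month-old C57BL6/J mice. Each genotype, Ts1Cje and wild-type, had 4 arrays, and the series describes the mice as littermate pairs. Ts1Cje mice are a model of Down syndrome: they are trisomic for a distal stretch of chromosome 16, a segment bounded by Sod1 and Zbtb21, in which a Sod1 copy carries a disruption, and the tip of chromosome 12 is lost on the translocated chromosome. The sex of the mice is not in the labels, and each labelled replicate was taken as a separate mouse. As a check of the tissue, the chosen markers of neurons (6 of 6), dentate granule cells (4 of 4), CA1 (4 of 4) and CA2 and CA3 (4 of 4) were well above background on all 8 arrays. The same was true of the markers of choroid plexus (4 of 4), ependyma (4 of 4), striatum (3 of 3) and thalamus and habenula (4 of 4), so that detection alone does not single out the hippocampus. Whole tissue was measured, so that fewer cells of a type and less RNA per cell cannot be told apart.

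Detection was the first property described, because a difference can be measured only where a probe gives a signal. The scanner software marks a spot as well above background when its signal exceeds the local background by a set multiple of its noise. On single arrays, between 1682 and 1816 of the 3218 probes carried this mark. In the wild-type arrays the count was 1717 ± 25.4, and in the Ts1Cje arrays it was 1749 ± 52.8 (SD, n = 4 each), with ranges of 1682 to 1739 and 1689 to 1816 that overlap. As shares, 53.3% ± 0.79 of the Ensembl probes were detected in wild-type and 54.3% ± 1.64 in Ts1Cje (SD, n = 4 each). The share lay between 73.1% and 75.8% for RefSeq probes, between 52.3% and 55.2% for probes on cDNA clones and other sources, and between 41.6% and 45.6% for genome intervals. On every one of the 8 arrays the Ensembl probes thus lay below the RefSeq probes and above the intervals, and they overlapped with the cDNA probes.

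**Figure D1:**
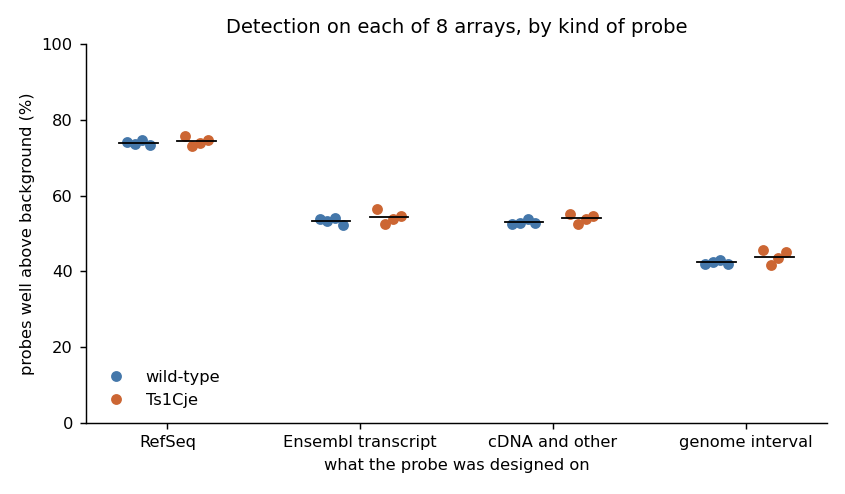
Share of probes well above background (vertical axis, percent of the probes of each kind) for the 4 kinds of probe (horizontal axis). Each point is 1 array, blue for wild-type and orange for Ts1Cje, and the bar is the mean of 4 arrays. The Ensembl probes sit between 52.3% and 56.4%, below the RefSeq probes on all arrays.

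Most probes were either detected on every array or on none. Of the 3218 probes, 1551 (48.2%) were above background on all 8 arrays and 1137 (35.3%) on none, which leaves 530 (16.5%) that passed on some arrays. Among RefSeq probes, 70.6% were detected on all 8 and 19.6% on none. Of the 530 partly detected Ensembl probes, 263 passed on more Ts1Cje than wild-type arrays, 195 on more wild-type than Ts1Cje arrays and 72 on equally many. For all kinds of probe together these counts were 3964, 2642 and 1142, so that the excess in Ts1Cje was also present over the whole array. The median local background of the Ensembl probes was 30 to 32 brightness units on the wild-type arrays and 25 to 31 on the Ts1Cje arrays, and its part in the detection counts was not tested.

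Detection was also counted by the design series of the probe, which the start of its name gives. The share detected on all 8 arrays was 49.3% for the 2343 probes named A_55, 45.1% for the 244 named A_51, 44.5% for the 344 named A_52 and 44.3% for the 262 named A_66, with 68.0% for the 25 named A_65. In each of these series the RefSeq probes were detected more often (63.4% to 81.7%).

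A pair of identifier ranges stood at opposite ends of detection. They were singled out after the values were seen and are described without a test. Identifiers numbered from 82392 to 82421 belonged to 12 probes, and all 12 were detected on all 8 arrays. These 12 probes gave between 19.4% and 20.8% of the summed signal of all 3218 probes on single arrays. At the other end, 277 probes for 258 transcripts numbered from 103112 to 103751 were mostly dark: 196 of them (70.8%) were detected on no array and 24 (8.66%) on all 8. Outside this range, 941 of 2941 Ensembl probes (32.0%) were detected on no array and 51.9% on all 8. The dark range thus holds 17.2% of all undetected Ensembl probes.

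The signal of the detected probes spanned a wide range. Levels are given as the log2 of the processed signal minus the 75th percentile of the same array, so that 0 is the brightness at that percentile. Brightness depends on the probe sequence as well as on the RNA, so that levels of different probes rank spots, not transcripts. The 1551 probes detected on all 8 arrays had a median level of -1.65, with 5% of them below -4.10 and 5% above 5.74. The same percentiles of RefSeq probes were 0.30, -3.69 and 5.10. Of the 1551, 111 lay below -4, 573 between -4 and -2, 364 between -2 and 0, 203 between 0 and 2, 130 between 2 and 4, 104 between 4 and 6 and 66 above 6. The highest level was that of A_66_P101646 (ENSMUST00000082402), at 9.43 ± 0.04 in Ts1Cje and 9.45 ± 0.07 in wild-type (SD, n = 4 each). Its difference was -0.02 (SE 0.05, limma adjusted p = 0.91). On single arrays the 10 brightest of the 3218 probes gave 25.1% to 26.6% of their summed signal, and the Ensembl probes as a whole gave 6.40% to 6.55% of the signal of all non-control probes.

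The comparison the design asks for is Ts1Cje against wild-type. A probe was tested when either genotype had it above background on each of its 4 arrays, which 1641 of the 3218 Ensembl probes (51.0%) and 32596 of all probes (58.5%) were. Of the 1641, 2 rose and 0 fell in Ts1Cje (limma, Benjamini-Hochberg adjusted p under 0.05 over the 32596 probes), while 95 higher and 65 lower had an unadjusted p under 0.05 (9.75%, against 8.44% of all tested probes). The shares are 0.122% of the Ensembl probes higher against 0.169% of all tested probes, and none lower against 0.0184% of all, so that the Ensembl probes were not called more often than the array as a whole. Leaving out 1 array lowered the count of 2 to 1 (replicate 1 of Ts1Cje, and replicates 2 and 3 of wild-type, each in turn) or to 0 (replicates 2, 3 and 4 of Ts1Cje, and replicate 1 of wild-type). Array weights gave 4 probes, as did a trended and robust prior, and testing all 55681 probes gave 0. With the replicate number as a block, 0 Ensembl probes rose and 1 probe of the whole array was called. The labels do not say that a replicate number marks littermates.

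Most of the tested Ensembl probes differed little between the genotypes. Their median log2 difference was 0.01, against -0.01 over all tested probes, and it was -0.04 against -0.06 with the array median as centre and -0.0040 with normexp correction. Of the 1641, 868 (52.9%) lay above 0, and 653 (39.8%) did with the array median as centre. In all, 1398 of the 1641 (85.2%) lay within 0.25 of 0, against 88.8% of all. Differences beyond 1.5-fold were seen for 22 probes higher and 10 lower, or 1.95% against 1.49% of all tested probes. For 50 Ensembl probes (3.05%) the lowest Ts1Cje array was above the highest wild-type array, where the share over all tested probes was 2.41%. The reverse held for 44 (2.68%), where that share was 3.59%. The 50 had a median log2 difference of 0.31 and the 44 a median of -0.17.

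**Figure D2:**
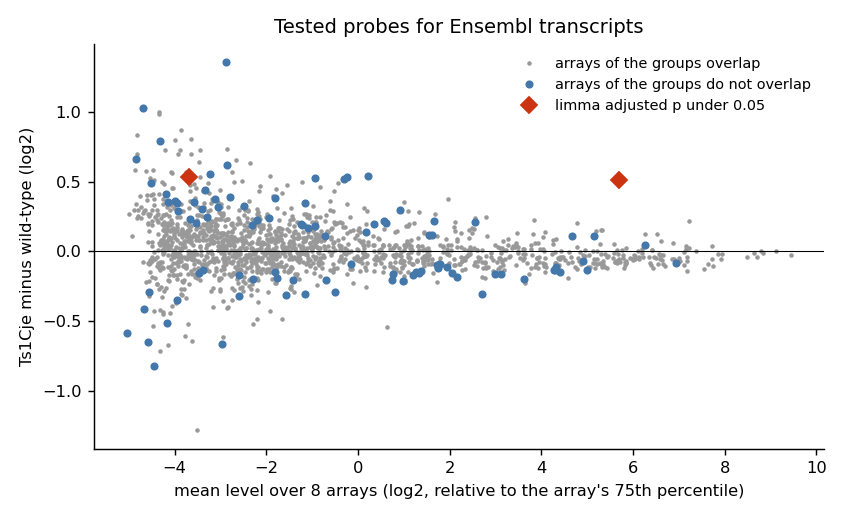
Difference between Ts1Cje and wild-type (vertical axis, log2) against the mean level over 8 arrays (horizontal axis, log2 relative to the array's 75th percentile) for the 1641 tested Ensembl probes. Blue points are the probes whose arrays do not overlap between the genotypes, and red diamonds are the 2 probes past the threshold, one of them dim and the other bright.

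The size of the differences followed the brightness of the probe. When the 1641 probes were divided by level into 4 bins, the median spread between arrays of a group was 0.26 in the dimmest bin and 0.08 in the brightest (SD on the log2 scale). RefSeq probes of the same levels had spreads of 0.26 and 0.08 as well. The median difference was 0.08 in the dimmest bin, where 258 of 411 probes were above 0, and -0.04 in the brightest, where 137 of 410 were. With normexp background correction the median of the dimmest bin was 0.0017, with 208 of 411 above 0, and that of the brightest was -0.03. Of the probes beyond 1.5-fold, 25 lay in the dimmest bin, 7 in the next and none in the brighter bins. Of the 1641 probes, 63 passed the filter through the Ts1Cje arrays alone and 27 through the wild-type arrays alone. Such probes were admitted through the group where they tend to be high, and their part in these counts and medians was not tested. With only probes detected on all 8 arrays, 86 Ensembl probes instead of 94 had arrays that do not overlap. The share of all probes under this filter is not given.

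The clearest difference was that of A_55_P1955517, the single probe for ENSMUST00000121759. Its level was 5.99, 5.89, 5.98 and 5.92 on Ts1Cje arrays 1 to 4 and 5.41, 5.47, 5.39 and 5.47 on wild-type arrays 1 to 4. The lowest Ts1Cje array thus lay 0.42 above the highest wild-type array. On the scanner's linear scale, the processed signal was 34539 to 38432 in Ts1Cje and 23949 to 26820 in wild-type, against a local background of 23.5 to 32.0 units. The level was 1.42-fold higher in Ts1Cje (log2 difference 0.51, SE 0.05, 95% interval 0.40 to 0.62, limma adjusted p = 0.011). The probe is bright, since 95.1% of the tested Ensembl probes had a lower level. Within the upper row of the slide, which held replicates 1 and 2, the difference was 0.50, and within the lower row, with replicates 3 and 4, it was 0.51. Slide columns alternated between the genotypes and cannot be told apart from them. The call was lost when an array of Ts1Cje was left out (replicate 2, adjusted p = 0.063; replicate 3, 0.059; replicate 4, 0.067) or replicate 1 of the wild-type (0.058). It was also lost when all 55681 probes were tested (0.070) and with the replicate number as a block (0.10), and it passed in 12 of 18 other settings.

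The other probe that rose was A_51_P358052, the single probe for ENSMUST00000143671, and it was dim. Its level was -3.38, -3.45, -3.47 and -3.38 on Ts1Cje arrays 1 to 4 and -4.06, -3.86, -4.04 and -3.84 on wild-type arrays 1 to 4, with no overlap between the groups. The level was 1.45-fold higher (log2 difference 0.53, SE 0.07, 95% interval 0.38 to 0.69, limma adjusted p = 0.025), and all 8 arrays were above background. The median brightness of the spot before correction was 107 to 110.0 units in Ts1Cje and 88.5 to 92.0 in wild-type. The local background around it was 25 to 32 units in Ts1Cje and 29 to 38 in wild-type, ranges that overlap, and its part in the difference was not tested. With normexp correction the difference was 0.24 and the adjusted p 0.43. The call was also lost without any 1 of the 8 arrays, with adjusted p between 0.066 and 0.12. With the replicate number as a block the adjusted p was 0.13, and with a trended and robust prior it was 0.17. The probe passed in 4 of 18 other settings.

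Beyond these, 5 Ensembl probes had a limma adjusted p under 0.10, and their arrays did not overlap either. The share of all tested probes under 0.10 is not given here, so that these 5 are described as single probes only. The 3 that were higher had log2 differences of 0.52 to 0.54 (1.43-fold to 1.46-fold, adjusted p 0.063 to 0.074). The 2 that were lower were A_55_P2236228 and A_55_P2060188. Levels of A_55_P2236228 (ENSMUST00000149343) were -1.68, -1.81, -1.72 and -1.74 on Ts1Cje arrays 1 to 4 and -1.41, -1.39, -1.48 and -1.41 on wild-type arrays 1 to 4. The difference was -0.31 (SE 0.05, adjusted p = 0.071). It passed in 1 of 18 other settings, with array weights (adjusted p = 0.026), and with normexp correction the difference was -0.18 (adjusted p = 0.43). A_55_P2060188 (ENSMUST00000120532) had a mean level of -0.66 ± 0.05 on the Ts1Cje and -0.36 ± 0.06 on the wild-type arrays (SD, n = 4 each), a difference of -0.29 (SE 0.05, adjusted p = 0.099). Neither of these 2 passed the threshold.

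**Figure D3:**
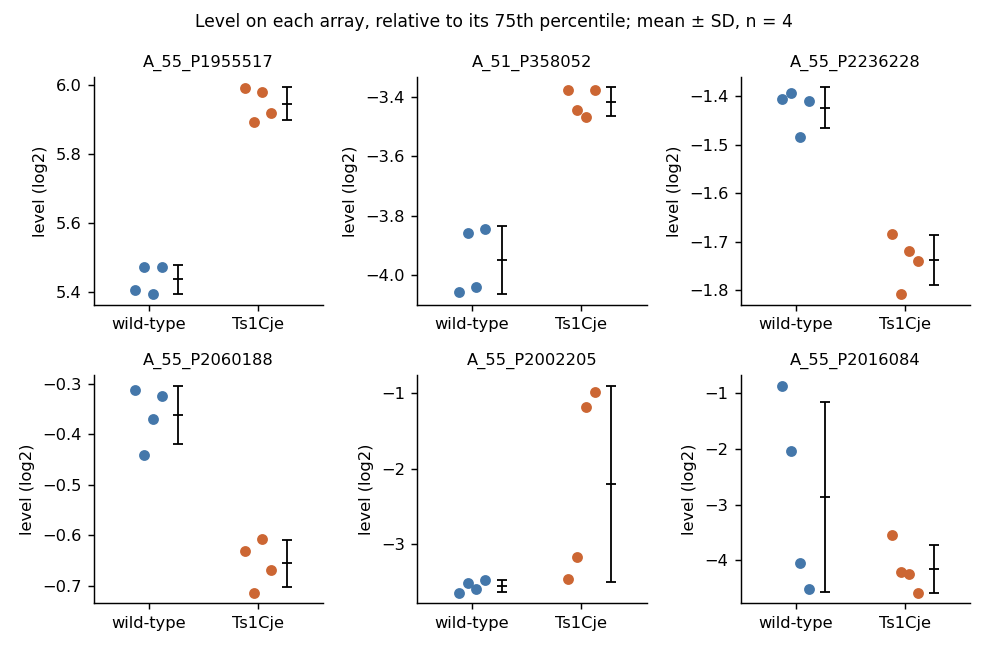
Level (vertical axis, log2 relative to the array's 75th percentile, a scale of its own in each panel) on the 4 wild-type (blue) and 4 Ts1Cje arrays (orange) for 6 Ensembl probes, with the mean ± SD beside the points. In the first 4 panels the groups do not overlap. In the last 2, which show the largest differences in either direction, 2 arrays of a group stand apart from the other 6. The groups of A_55_P2002205 do not overlap either, with a gap of only 0.01, and those of A_55_P2016084 overlap.

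The largest differences in either direction did not pass the threshold, and in both cases arrays of the same genotype differed widely. A_55_P2002205 had the highest difference, 1.36 (SE 0.56, adjusted p = 0.57). Its level was -1.18 and -0.99 in Ts1Cje replicates 3 and 4, while Ts1Cje replicates 1 and 2 stood at -3.46 and -3.17 and the 4 wild-type arrays at -3.64 to -3.47. The lowest Ts1Cje array lay only 0.01 above the highest wild-type array, so that this probe counts among the 50 without overlap. A_55_P2016084 had the lowest difference, -1.29 (SE 0.76, adjusted p = 0.67). It stood at -0.87 and -2.03 in wild-type replicates 1 and 2, at -4.05 and -4.51 in wild-type replicates 3 and 4 and at -4.58 to -3.55 in Ts1Cje. Both probes were above background on all 8 arrays.

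Detection confined to 1 genotype was rare. Of the 3218 probes, 2 were above background on all 4 Ts1Cje arrays and on no wild-type array, and 1 on all 4 wild-type arrays and on no Ts1Cje array. On the whole array these counts were 20 and 5. Because the dim group has only a bound, the ratio was taken against the lowest signal that counted as detected on each array or the probe's own signal, whichever was higher. Against this reference the 2 probes seen in Ts1Cje had mean ratios of 1.73 (A_55_P2007368, means -4.17 and -5.20, adjusted p = 0.17) and 1.38 (means -4.46 and -5.17, adjusted p = 0.66). For the probe seen in wild-type, A_52_P876147, the reference equalled its own mean in Ts1Cje. Its ratio of 1.77 is thus the measured one (means -4.04 and -4.86, adjusted p = 0.20). None passed the threshold, and for the second of the 3 the arrays of the groups overlapped. The limma interval of its fold difference, without the reference, ran from 0.85 to 3.10. The 3 ratios do not allow for the spread between arrays, and the probes were picked by their detection.

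Some transcripts had several probes, which allows a comparison of probes designed on the same transcript. There were 133 such transcripts with 280 probes, 121 of them with 2 probes. For 50 of the 133 every probe was detected on all 8 arrays, for 35 none of the probes was detected on any array, and for 18 a probe detected on all 8 arrays stood beside a probe detected on none. More than 1 probe was tested for 54 transcripts. Levels of the tested probes of a transcript spanned 1.64 in the median and 8.35 at most (log2). Whether such probes read the same RNA was not tested. The differences between the genotypes had the same sign in 37 of the 54. The differences of a transcript spanned 0.07 in the median and less than 0.25 in 48 of the 54. Probes of different transcripts were not compared in this way, and 85.2% of all tested Ensembl probes lay within 0.25 of 0. The 95% intervals of its probes overlapped in every one of the 54. Across the 46 transcripts with exactly 2 tested probes, Pearson's r between the 2 differences was 0.31; the probes of a transcript share the same arrays and RNA. The widest disagreement was that of ENSMUST00000170917, with -0.48 on A_55_P2038723 and 0.01 on A_55_P2173664. Neither probe that rose had a second probe for its transcript among the Ensembl probes.

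**Figure D4:**
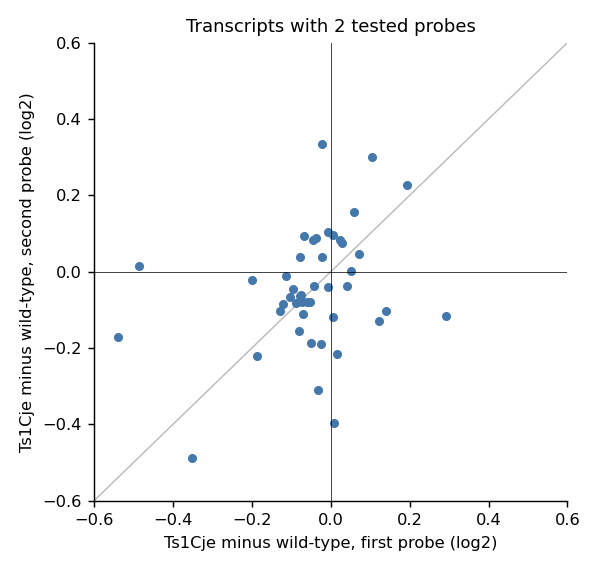
Difference between Ts1Cje and wild-type (log2) for the first probe of a transcript (horizontal axis) and for its second probe (vertical axis), in the order of the probe names, for the 46 transcripts with exactly 2 tested probes. The grey line marks equal differences. Most points lie within 0.25 of the line, and the widest gap is 0.50.

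Repeated spots give the spread within an array beside the spread between arrays. Of the Ensembl probes, 7 were printed 10 times on each array, 4 of which were tested, while 3210 were printed once. The SD between spots is that of single spots, and the SD between arrays is that of the means of 10 spots. The 2 are thus unlike measures, because a mean of 10 spots varies less with spot noise than a single spot. For A_51_P117226 the SD between the 10 spots of an array was 0.05 in the median array, and the SD between arrays of a group was 0.12. A_51_P115471 had 0.08 between spots and 0.09 between arrays, and A_51_P191463 0.10 and 0.13. The probe A_51_P485421 (ENSMUST00000103426), from the dark identifier range, differed between arrays much more than between spots, with 0.38 against 0.09. Its level was -1.58, -2.14, -1.70 and -1.42 on wild-type arrays 1 to 4 and -2.34, -1.70, -1.32 and -1.59 on Ts1Cje arrays 1 to 4. The genotypes overlapped fully (difference -0.03, SE 0.23, adjusted p = 0.98).

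The bright identifier range showed no called difference. Of its 12 probes, numbered from 82392 to 82421, 11 stood below 0, with differences of -0.26 to 0.03 and limma adjusted p of 0.70 or more. None had an unadjusted p under 0.05. Their median was -0.04, as was that of the brightest bin of the Ensembl probes, where 137 of 410 stood above 0. In the dark range from 103112 to 103751, 30 of the 277 probes were tested, with differences of -0.42 to 0.81 and a median of 0.12. Only 24 of the 277 were detected on all 8 arrays, so that the rest of the 30 were admitted through 1 genotype alone. The dimmest bin of the Ensembl probes had a median of 0.08, and of 0.0017 with normexp correction. The 30 were not matched to that bin for level. None of the 30 passed (limma, lowest adjusted p 0.37). An unadjusted p under 0.05 was seen for 2 of the 30, against 8.44% of all tested probes. The arrays of the genotypes did not overlap for 1 of the 30, against 6.00% of all tested probes.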

How the data were processed

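Cy3-labelled RNA was hybridised to 1-colour Agilent arrays, 1 per mouse label. Per spot, the deposited files give intensities on a linear scale, which the authors made with Agilent Feature Extraction 10.10.1.1 on a design for mm9, per the file headers: a processed signal corrected for background, the median brightness of spot and local background, and flags, whose 0 and 1 values were used as deposited. Control spots and outlier spots were left out, no spot was saturated, spots of a probe were averaged as log2, and each array's 75th percentile was subtracted. Every kept probe was tested with limma 3.58.1 in R 4.3.3 (lmFit, eBayes, no block), with Benjamini-Hochberg adjustment over 32596 probes; intervals are its moderated 95% intervals. P-values measure only the spread between these arrays, whose number limits the precision. RefSeq probes were named through a table of assembly GRCm38.p6 (27235 of 28685 matched).

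The 8 arrays shared 1 slide and 1 scan. On simulated data for this comparison with 32596 probes, 200 of them changed, the fit called 62.0% of the 1.5-fold and 80.0% of the 2-fold changes. It also called 9 unchanged probes. The changed probes were drawn from all tested probes, whose median spread within groups was 0.13, against 0.15 for the tested Ensembl probes. The rates for Ensembl probes alone were not simulated. The probes and lists were chosen with earlier results of these data known. The rule named probes past the threshold, the smallest p with arrays that do not overlap, the brightest and those detected in 1 genotype; probes with the largest differences, identifier ranges and repeated spots were added after their values were seen. Its parts that need gene names, and the comparison with RefSeq probes of the same gene, were not run, and only some probes it names are given. Alternatives were other background, scaling and filters, 1 probe per name, array weights, a trended and robust prior, the replicate number as a block and each array left out; slide row as a term was chosen after seeing the data. Values were read with pandas 2.3.3 in Python 3.11.15 and plotted with matplotlib 3.10.9.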

Additional observations from a re-analysis of the deposited data

How the results depend on the processing

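The count of Ensembl probes that rose, 2, was 1 with the array median as centre, 4 with array weights, 4 with a trended and robust prior, 0 without a filter on dim probes, and 5 at an adjusted p under 0.10; over the 8 settings that leave out an array it ranged from 0 to 2. The count that fell, 0, was 1 with array weights and 2 at an adjusted p under 0.10, and 0 without each array. All probes called, 61, were 32 with the array median as centre, 102 with array weights and 3 without a filter, and ranged from 1 to 51 with an array left out. Ensembl probes whose arrays do not overlap, 94, ranged from 127 to 250 with 7 arrays. The cause of these changes was not tested. Settings that leave out an array have fewer arrays, with which non-overlap is an easier condition, and the setting without a filter has more probes. The share over all tested probes is not given for non-overlap with 7 arrays or for an adjusted p under 0.10. Those counts are thus not set against the whole array. With the replicate number as a block, 0 Ensembl probes rose (limma adjusted p = 0.10 for A_55_P1955517 and 0.13 for A_51_P358052) and 1 probe of the whole array was called. Same-numbered arrays of the genotypes had correlated deviations (r 0.07 to 0.22, against -0.23 to 0.11 for different numbers), 7 of 8 arrays correlated best with their own number, and the labels do not say that a number marks littermates. The difference of A_66_P101646 was 0.0179 with quantile normalization. The median difference of the Ensembl probes changed sign between settings, from 0.01 to -0.04 with the array median as centre and -0.0040 with normexp. With the flag for a positive and significant signal, 2045 probes were detected on all 8 arrays. Background sets what can be seen: 1641 of 3218 probes could be tested, and 1137 were above background on no array.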

Other observations

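A few Ensembl probes detected on all 8 arrays showed 2 separate levels among the arrays. By a rule set after the values were seen, a gap of more than 1 on the log2 scale between neighbouring arrays with at least 2 arrays on either side, 3 of 1551 probes had this pattern (0.193%), as did 17 of 20253 RefSeq probes (0.0839%). The RefSeq probes were brighter, and these shares were not matched for level. A pair of the 3 Ensembl probes are those with the largest differences given above, A_55_P2002205 and A_55_P2016084. The third, A_55_P2169356 (ENSMUST00000098144), was low in replicate 4 of both genotypes, at -4.54 in wild-type and -4.30 in Ts1Cje. On the other 6 arrays it stood at -3.17 to -2.63. Its difference between the genotypes was 0.08 (SE 0.46, limma adjusted p = 0.97).

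Among the 1551 probes, 40 (2.58%) had a spread within groups above 0.5 (SD on the log2 scale), against 1.80% of 20253 RefSeq probes detected on all 8 arrays. These shares are not matched for level, and the RefSeq probes were brighter (median level 0.30 against -1.65). In the 4 bins of tested probes by level, from dim to bright, the median spread was 0.26, 0.18, 0.13 and 0.08 for Ensembl probes. For RefSeq probes of the same levels it was 0.26, 0.17, 0.11 and 0.08.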
